A study of Mus musculus with 30 samples.

Results

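A set of 10 genes that move salt, acid and water across the lining of the colon was followed through 10 groups of mouse colon samples. They are the anion exchanger Slc26a3, the sodium-proton exchanger Slc9a3, the carbonic anhydrases Car1 and Car4, the aquaporins Aqp4 and Aqp8, the sodium channel subunits Scnn1a, Scnn1b and Scnn1g, and the chloride channel Cftr. They were chosen by name, each matched 1 row of the deposited table of 31023 genes, and all 10 were among the 19558 genes tested. Bulk RNA came from the colon of male C57BL/6 mice aged 8 to 12 weeks, WT or Smox-/- (written Smox in the labels and below), at day 56. Smox encodes spermine oxidase, and the extent of its deletion is not given in the labels. The 10 groups held 3 libraries each, and the series' design text gives 3 mice per group. The untreated groups were WT and Smox mice given neither agent. The spermidine groups were WT and Smox mice given 14 mM spermidine in the drinking water for 56 days. The AOM-DSS groups had 1 injection of 12.5 mg/kg azoxymethane, a carcinogen that acts in the colon, then 4% dextran sulfate sodium, an agent that damages the gut epithelium, in 3 cycles of 5 days from days 5, 26 and 47. Non-tumor colon after AOM-DSS was sequenced in WT and Smox mice with and without spermidine, which makes 4 groups. Tumors were sequenced from WT mice given AOM-DSS with spermidine and from Smox mice given AOM-DSS alone, so genotype and spermidine cannot be told apart between the tumor groups. AOM-DSS is a chemical model of cancer arising in an inflamed colon, and whether tumors and non-tumor colon share mice is not stated.

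The colon takes salt and water back from the gut contents. Surface colonocytes absorb sodium chloride by pairing a sodium-proton exchanger with a chloride-bicarbonate exchanger, and carbonic anhydrases make the protons and bicarbonate that the exchangers trade. In the distal colon the epithelial sodium channel, built of alpha, beta and gamma subunits and controlled by aldosterone, takes up the sodium that is left. CFTR works the other way, letting chloride and bicarbonate out of crypt cells so that water follows, and aquaporins let water pass through the cell membranes.

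Library totals ran from 33060607 to 81011304 counts. Levels are given as CPM, counts scaled to the size of the library. Smox itself was at 18.6 to 68.7 CPM in the libraries labelled Smox and at 25.1 to 169 CPM in the libraries labelled WT, so its RNA was present under the Smox label and the ranges overlapped. In untreated colon it was no lower under the Smox label (27.4 to 36.2 CPM, against 25.1 to 27.6 CPM in WT), and every Smox or WT below means the libraries so labelled. The list of 12 epithelial genes such as Epcam and Krt8 was present in every library, with a summed level of 15873 to 27322 CPM in the 24 non-tumor libraries and 13097 to 19547 CPM in the 6 tumors. Some libraries stood apart. WT untreated replicate 3 had a summed 11.8 CPM of 6 Hox genes that mark distal hindgut, against 673 and 737 CPM in the other untreated WT libraries, and 8075 CPM of skeletal muscle genes. In replicate 1 of the Smox AOM-DSS spermidine non-tumor group there were 502 CPM of the crypt base genes Lgr5, Ascl2, Axin2 and Smoc2, within the 178 to 956 CPM of the tumors. Both are called atypical below, and other libraries also stood apart. The highest WT AOM-DSS non-tumor library had 240 CPM of the crypt base genes, which lies within the tumor range too. In untreated Smox colon the squamous epithelium genes summed to 5.89 CPM in the lowest library and 2413 CPM in the highest. In bulk tissue, fewer cells of a type and less RNA per cell cannot be told apart, and this holds for each difference below.

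Most of the called differences were in the tumors. A gene is called where its adjusted p in edgeR is under 0.05 over all genes tested, and rose or fell is written of called genes only. In Smox mice given AOM-DSS, 7 of the 10 genes fell in tumors compared with non-tumor colon (Slc26a3, Slc9a3, Car1, Car4, Aqp4, Aqp8 and Cftr) and none rose, where 24.6% of all genes were called, 13.2% lower and 11.4% higher. In WT mice given AOM-DSS with spermidine, 7 of the 10 fell (Slc26a3, Car1, Car4, Aqp4, Aqp8, Scnn1a and Cftr) and none rose, where 34.4% of all genes were called, 17.5% lower and 16.9% higher. The median log2 change of the 10 genes was -2.99 in Smox and -2.24 in WT, beside -0.01 and 0.01 over all genes. These comparisons use separate samples. In non-tumor colon, AOM-DSS was followed by higher Aqp4 and lower Car1 in WT mice, which were the 2 genes of the 10 called. There 6.44% of all genes were called, 4.68% lower and 1.76% higher. The same 2 genes were called between WT mice with AOM-DSS and without it when both drank spermidine, where 1.91% of all genes were called, 1.48% lower and 0.435% higher. None of the 10 was called with AOM-DSS in Smox mice, alone (0.0767% of all genes called) or under spermidine (0.0205%). Unadjusted p values were under 0.05 for Slc9a3, Car1 and Aqp4 in the first and for Aqp4 in the second, and DESeq2 called Car1 and Aqp4 in the first and Aqp4 in the second. All shares of genes called, here and below, are those of edgeR. The share of all genes that DESeq2 called is not given, so its calls have no background beside them.

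**Figure D1:**
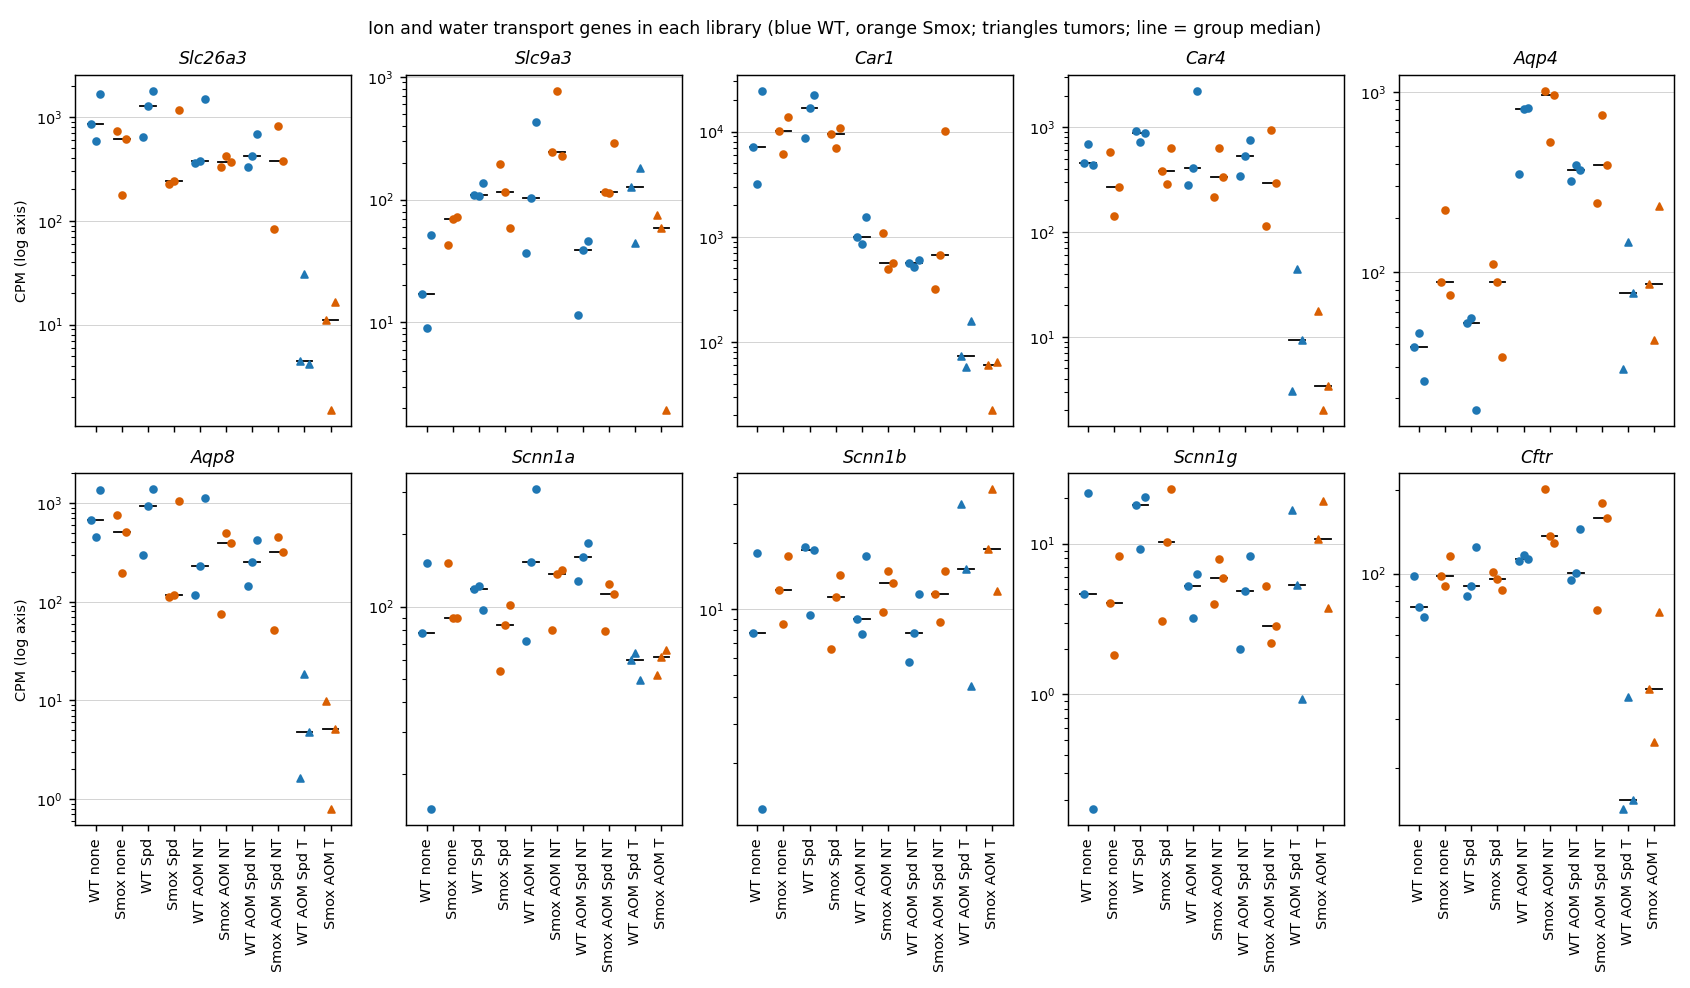
CPM of each gene (vertical log axis) in each of the 30 libraries, by group along the horizontal axis (none, untreated; Spd, spermidine; AOM, AOM-DSS; NT, non-tumor; T, tumor), with WT in blue, Smox in orange, tumors as triangles and the group median as a line. Slc26a3, Car4 and Aqp8 in the 6 tumors lie below every one of the 24 non-tumor libraries, while Scnn1g in tumors lies among them. Scnn1b in 2 of the 6 tumors, at 29.97 and 35.0 CPM, lies above every non-tumor library.

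**Figure D2:**
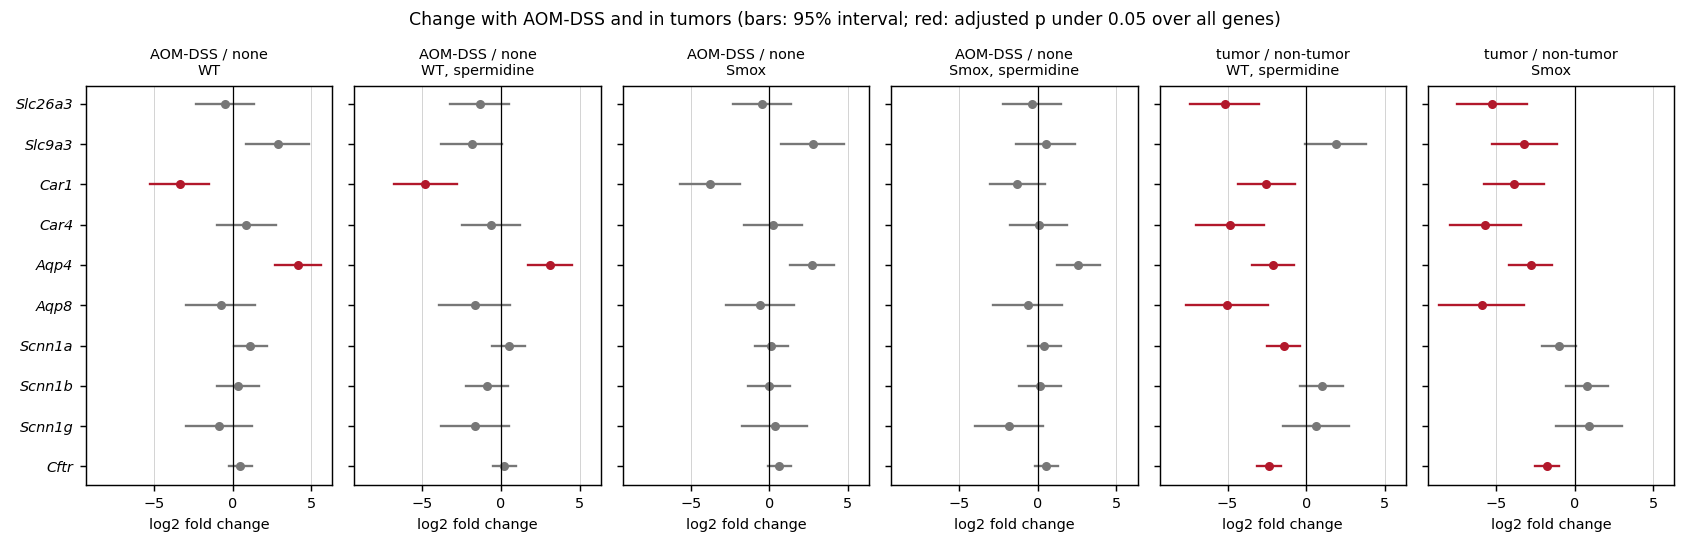
Log2 fold change (horizontal axis) of each gene with AOM-DSS in non-tumor colon (4 panels) and in tumors against non-tumor colon (2 panels), as estimate and 95% interval, red where the adjusted p was under 0.05. Aqp4 lies to the right and Car1 to the left with AOM-DSS in all 4 panels, and most genes lie to the left in tumors.

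Slc26a3, Car4 and Aqp8 are products of mature surface colonocytes and had nearly the same pattern over the groups. The 250 bases before their RefSeq starts (GRCm38.p6, plus strand) are shown because the genes moved together, with Cftr beside them as the gene of the secretory side. The windows are chr12:31437969-31438218 for Slc26a3, chr11:84957504-84957753 for Car4, chr7:123462044-123462293 for Aqp8 and chr6:18170437-18170686 for Cftr. The Slc26a3 window lies within the longer span that GENCODE gives the gene. RefSeq promoters matched 7 of the 10 genes, with none for Aqp4, Car1 or Scnn1a. Capitals mark TTTAT (the core of a CDX site), GTTAAT (part of an HNF1 site) and TATAAA (a core promoter element) on either strand. Every TATAAA holds a TTTAT on the other strand.
Slc26a3: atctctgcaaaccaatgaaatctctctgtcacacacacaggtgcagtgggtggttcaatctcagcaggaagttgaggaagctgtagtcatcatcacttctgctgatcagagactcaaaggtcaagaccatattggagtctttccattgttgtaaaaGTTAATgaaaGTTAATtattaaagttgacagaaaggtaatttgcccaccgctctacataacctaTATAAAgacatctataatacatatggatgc
Car4: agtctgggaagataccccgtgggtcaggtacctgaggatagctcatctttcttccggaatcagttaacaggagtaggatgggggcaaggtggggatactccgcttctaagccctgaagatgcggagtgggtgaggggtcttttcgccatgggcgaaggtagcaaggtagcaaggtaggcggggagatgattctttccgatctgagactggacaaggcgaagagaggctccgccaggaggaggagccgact
Aqp8: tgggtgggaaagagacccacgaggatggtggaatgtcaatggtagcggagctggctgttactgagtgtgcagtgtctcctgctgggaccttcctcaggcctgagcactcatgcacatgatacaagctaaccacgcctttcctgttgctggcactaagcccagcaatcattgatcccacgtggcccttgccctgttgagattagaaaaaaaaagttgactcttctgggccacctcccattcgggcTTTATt
Cftr: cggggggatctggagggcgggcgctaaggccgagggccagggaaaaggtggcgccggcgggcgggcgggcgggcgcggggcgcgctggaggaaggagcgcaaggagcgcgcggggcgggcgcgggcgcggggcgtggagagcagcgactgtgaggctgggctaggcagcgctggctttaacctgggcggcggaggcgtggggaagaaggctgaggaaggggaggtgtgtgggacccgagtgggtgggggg
Slc26a3 held 2 GTTAAT and 1 TATAAA, and its 1 TTTAT match was the other strand of that TATAAA and no separate site. Aqp8 held 1 TTTAT at its end, and Car4 and Cftr held none of these. Among 32851 mouse promoters of the same length, 37.3% held TTTAT, 6.43% GTTAAT and 12.4% TATAAA. The GC content was 38.8% in Slc26a3, 56.4% in Car4, 52.4% in Aqp8 and 76.4% in Cftr, against a median of 52.4%, and Cftr had 30 CpG pairs where Slc26a3 had 1. In all 12 motifs were searched, and those in capitals and the genes shown were picked after the matches and the results were seen. The other 9 were CAAAGT (12.6% of promoters), CAAAGTCCA (0.384%), TTTATNG (9.81%), TGTTCT (16.1%), TTCNNNGAA (7.02%), GGTNACC (5.14%), CACCC (52.0%), GATAA (22.6%) and the full steroid receptor palindrome, which 3 promoters held. Of these, only CACCC was in the 4 windows shown, once in each. A match of letters is a description and does not show that a factor binds.

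Slc26a3 (ENSMUSG00000001225.12, GRCm38 chromosome 12, 31390871 to 31473917), the chloride-bicarbonate exchanger whose loss causes chloride diarrhea, was almost gone in tumors. Its level was 327, 416 and 368 CPM in Smox AOM-DSS non-tumor colon and 11.2, 1.49 and 16.6 CPM in Smox tumors. In WT mice with AOM-DSS and spermidine it was 330, 420 and 692 CPM in non-tumor colon and 4.42, 31.0 and 4.14 CPM in tumors. In neither comparison did tumors and non-tumor colon overlap. The change was -5.25 on the log2 scale (SE 1.07, 37.9-fold, adjusted p = 0.00487) in Smox and -5.19 (SE 1.07, 36.4-fold, adjusted p = 0.00126) in WT. With AOM-DSS alone the non-tumor level of 357, 373 and 1482 CPM in WT overlapped the 847, 582 and 1669 CPM of untreated WT, and the log2 difference was -0.49 (95% interval -2.33 to 1.36). The untreated Smox libraries had 729, 177 and 617 CPM, the lowest of them below every WT library without AOM-DSS.

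Aqp8 (ENSMUSG00000030762.11, chromosome 7, 123462291 to 123468004), a water channel of the absorptive surface, followed Slc26a3. Its level was 75.0, 496 and 391 CPM in Smox non-tumor colon and 9.93, 0.785 and 5.16 CPM in Smox tumors, a log2 change of -5.92 (95% interval -8.62 to -3.22, adjusted p = 0.0061). In WT with spermidine it was at 143, 250 and 421 CPM in non-tumor colon and 1.64, 18.4 and 4.77 CPM in tumors (-5.04, SE 1.25, adjusted p = 0.00436). The non-tumor libraries of a group varied up to several fold, and even so none came down to the tumors. Car4 (ENSMUSG00000000805.18, chromosome 11, 84957786 to 84966044), a carbonic anhydrase tied to the outer cell surface, was at 215, 634 and 336 CPM in Smox non-tumor colon and 17.8, 1.99 and 3.41 CPM in tumors (-5.67, SE 1.09, adjusted p = 0.00433). In WT with spermidine Car4 was at 345, 527 and 753 CPM against 3.04, 44.0 and 9.38 CPM in tumors (-4.85, SE 1.05, adjusted p = 0.00174). The 6 calls for Slc26a3, Aqp8 and Car4 were kept when each library was left out in turn. Neither Aqp8 nor Car4 was called with AOM-DSS in non-tumor colon, where the log2 differences were -1.68 to -0.60 for Aqp8 and -0.63 to 0.88 for Car4 over the 4 comparisons.

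By a measure of likeness, the root mean square difference between 2 genes over the 10 group means of log2 CPM, each gene centred on its own mean, Aqp8 was the closest of 14285 genes to Slc26a3 (0.26, where Slc26a3 itself varied by 2.52) and Slc26a3 the closest to Aqp8. Car4 came next to Slc26a3 (0.38), and Slc26a3 was the closest to Car4. The groups share libraries between all genes, and the measure is a description. Car1 stood further off from Slc26a3 (1.44, rank 287). The nearest genes to Car1 were Gm15368 (0.47), Aldh1a1 (0.67) and Ces1d (0.68), those to Aqp4 were Stc2 (0.59), Il5ra (0.63) and Gna14 (0.75), and those to Cftr were Galntl6 (0.17), Zfp820 (0.21) and Snhg18 (0.21). Scnn1a was nearest to Pla2g10 (0.19) and Tmprss2 (0.19), Scnn1b to Sdc1 (0.21) and Scnn1g to Ciart (0.42). No gene came close to Slc9a3, whose nearest, Kcnq1ot1, differed by 0.88 where Slc9a3 varied by 1.29.

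Car1 (ENSMUSG00000027556.15, chromosome 3, 14766216 to 14808368), the abundant carbonic anhydrase inside colonocytes, was the gene of the 10 that dropped already in non-tumor colon. Untreated WT libraries had 7154, 3190 and 24573 CPM, and WT non-tumor libraries after AOM-DSS had 991, 859 and 1552 CPM. The groups did not overlap, and the log2 change was -3.36 (SE 0.90, 10.3-fold, adjusted p = 0.0339). The highest untreated library was the atypical replicate 3, and without it the change was -2.13 (adjusted p = 0.259). The call was also lost without WT AOM-DSS non-tumor replicate 1, 2 or 3 (-3.66 to -3.15, adjusted p = 0.0673 to 0.16), with no filter (adjusted p = 0.0616) and in a model of these groups alone (adjusted p = 0.187). Under spermidine the WT libraries had 8680, 16861 and 22355 CPM without AOM-DSS and 562, 514 and 604 CPM after it, a log2 change of -4.83 (SE 0.97, 28.5-fold, adjusted p = 0.0165). That call was lost without WT spermidine replicate 3 or any of the 3 AOM-DSS spermidine libraries, with changes of -4.92 to -4.53 and adjusted p of 0.0632 to 0.11.

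In Smox mice Car1 was at 10149, 6099 and 13681 CPM untreated and 1084, 497 and 565 CPM in non-tumor colon after AOM-DSS, again without overlap (log2 -3.80, SE 0.92, adjusted p = 0.0914, not called). Under spermidine it was at 9556, 6926 and 10823 CPM without AOM-DSS and at 320, 677 and 10035 CPM after it (-1.31, adjusted p = 0.443). The third of these AOM-DSS libraries lay with the libraries that had no AOM-DSS. Without Smox AOM-DSS spermidine non-tumor replicate 3 the change was -4.17 (adjusted p = 0.0228). The same library had the lowest mean log2 CPM of the Hox position genes among the non-tumor libraries after AOM-DSS, 0.46 against 1.43 to 6.05 in the others, and the part of position in its Car1 level was not tested. Tumors were lower still, with 59.8, 22.3 and 64.9 CPM in Smox (log2 -3.87 against non-tumor colon, SE 0.92, adjusted p = 0.00833) and 72.8, 57.6 and 160 CPM in WT (-2.53, SE 0.87, adjusted p = 0.0286). The WT tumor call was lost in 5 of the 6 fits that left out a library, each but the one without WT AOM-DSS spermidine tumor replicate 3, with adjusted p of 0.0535 to 0.1 and a change of -2.57 to -2.28, and with no filter (adjusted p = 0.0521). The Smox tumor call was lost without Smox AOM-DSS tumor replicate 2 (-3.52, adjusted p = 0.0539). Car1 is also known from red cells, whose marker genes summed to 2.55 to 80.5 CPM in the non-tumor libraries and 5.13 to 70.7 CPM in tumors. The highest sum, 80.5 CPM, was in Smox AOM-DSS spermidine non-tumor replicate 3, the library with 10035 CPM of Car1, and its part was not tested.

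Aqp4 (ENSMUSG00000024411.11, chromosome 18, 15389496 to 15410982), a water channel of the basolateral membrane of gut epithelium and of muscle and glia elsewhere, rose in WT non-tumor colon after AOM-DSS. It was at 38.6, 46.0 and 25.0 CPM in untreated WT and at 350, 809 and 810 CPM in WT non-tumor colon after AOM-DSS. The log2 change was 4.17 (SE 0.71, 17.9-fold, adjusted p = 0.011), and it was 4.02 (adjusted p = 0.0562) without WT untreated replicate 3 and 4.23 (adjusted p = 0.11) in a model of these groups alone. Under spermidine WT mice had 52.2, 55.5 and 17.2 CPM without AOM-DSS and 322, 393 and 370 CPM with it (3.12, SE 0.68, adjusted p = 0.0225). That call was lost in 5 of the 6 fits that left out a library, each but the one without WT spermidine replicate 1, with changes of 2.73 to 3.36 and adjusted p of 0.0614 to 0.139. In Smox mice the level was 88.9, 221 and 74.7 CPM untreated and 1019, 525 and 967 CPM after AOM-DSS (2.71, SE 0.66, adjusted p = 0.0951). Under spermidine it was 111, 88.2 and 33.9 CPM without AOM-DSS and 242, 743 and 396 CPM with it (2.57, SE 0.66, adjusted p = 0.124). None of these 4 pairs of groups overlapped, and every one of the 12 non-tumor libraries after AOM-DSS lay above the 12 libraries without it. Skeletal muscle genes summed to 8075 CPM in WT untreated replicate 3, whose Aqp4 was 25.0 CPM, and to at most 14.9 CPM in non-tumor colon after AOM-DSS, where Aqp4 was high. Enteric neuron and glia genes summed to 72.9 to 280 CPM in untreated WT and 25.9 to 34.4 CPM in WT non-tumor colon after AOM-DSS, without overlap. In that comparison 5 of 8 of them and 7 of 8 skeletal muscle genes were called lower, and 2 of 8 leukocyte genes and 1 of 7 goblet cell genes higher. Under spermidine none of these lists had a call in WT. Of 6 surface colonocyte genes outside the 10, such as Krt20, 1 was called lower with AOM-DSS in WT, alone and under spermidine (median log2 -0.54 and -1.205). The mean log2 CPM of these 6 was 9.21 to 9.97 in untreated WT and 7.12 to 9.64 after AOM-DSS, with overlap. Under spermidine it was 9.61 to 10.1 without AOM-DSS and 7.90 to 8.50 with it, without overlap. The part of all these lists in the Aqp4 and Car1 results was not tested.

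Tumors had less Aqp4 than the non-tumor colon. In Smox the tumors were at 86.3, 42.4 and 234 CPM, a log2 change of -2.79 (SE 0.67, adjusted p = 0.00832), and in WT with spermidine at 29.2, 147 and 77.2 CPM (-2.10, SE 0.65, adjusted p = 0.0165). The Smox call was lost without Smox AOM-DSS tumor replicate 1 or 2 (-2.59 and -2.38, adjusted p = 0.0555 and 0.0534). The WT call was lost without WT AOM-DSS spermidine tumor replicate 1 or 3 (-1.69 and -2.04, adjusted p = 0.084 and 0.0596). The tumor range of 29.2 to 234 CPM overlapped the 17.2 to 221 CPM of colon without AOM-DSS.

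The ratio of Aqp8 to Aqp4, each per kb of exon, is given within each library as a description with no test. It was 69.7, 38.8 and 213 in untreated WT, 33.4, 3.47 and 26.9 in untreated Smox, 22.5, 66.6 and 316 in WT with spermidine and 4.01, 5.25 and 122 in Smox with spermidine. In non-tumor colon after AOM-DSS it was 1.31, 1.11 and 5.44 in WT and 0.29, 3.72 and 1.60 in Smox, and with spermidine 1.75, 2.51 and 4.48 in WT and 0.845, 2.39 and 3.18 in Smox. In tumors it was 0.222, 0.494 and 0.244 in WT and 0.454, 0.073 and 0.0868 in Smox, so that Aqp4 was above Aqp8 per kb in all 6. Untreated Smox, with its lowest library at 3.47, overlapped Smox after AOM-DSS, with its highest at 3.72. The ratio of Car1 to Car4 per kb ran from 7.27 to 88.0 in untreated WT, from 1.09 to 5.54 in WT after AOM-DSS and from 1.26 to 2.56 in WT after AOM-DSS with spermidine. In Smox it ran from 1.23 to 7.96 after AOM-DSS and from 1.14 to 54.0 after AOM-DSS with spermidine, and the latter reached into the 26.7 to 79.5 of Smox libraries without AOM-DSS. It was 2.06 to 37.7 in WT tumors and 5.28 to 30.02 in Smox tumors, since Car4 fell there as well.

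**Figure D3:**
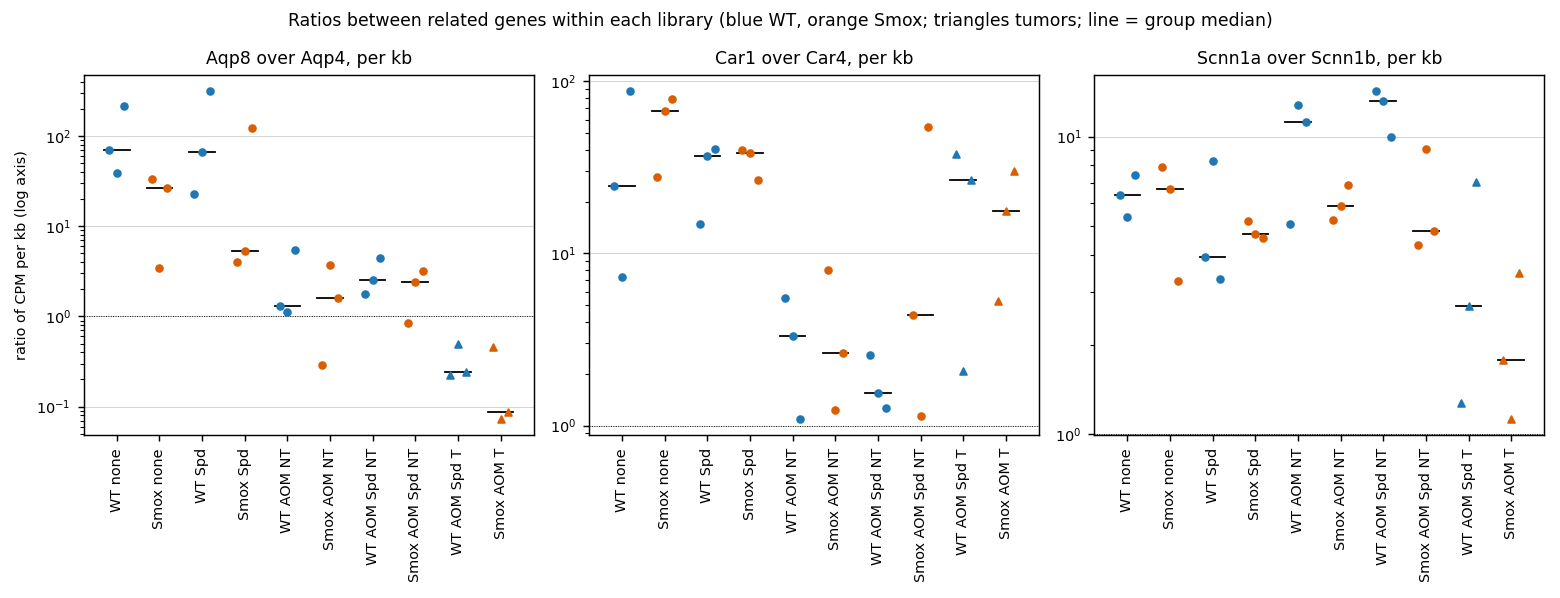
Ratio of CPM per kb of exon between related genes within each library (vertical log axis) by group, with WT in blue, Smox in orange, tumors as triangles, the group median as a line and a dotted line at 1. Aqp8 over Aqp4 is 0.494 or lower in the 6 tumors, and Scnn1a over Scnn1b runs from 1.13 to 7.04 in tumors.

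Slc9a3 (ENSMUSG00000036123.8, chromosome 13, 74121457 to 74169442), the sodium-proton exchanger that works beside Slc26a3, did not follow it. It was at 17.0, 8.95 and 51.5 CPM in untreated WT, 42.3, 69.4 and 71.8 CPM in untreated Smox, 108, 108 and 136 CPM in WT with spermidine and 195, 115 and 59.1 CPM in Smox with spermidine. WT spermidine libraries were all above untreated WT, with a log2 difference of 2.19 (95% interval 0.22 to 4.16, adjusted p = 0.26). After AOM-DSS it was at 37.0, 103 and 425 CPM in WT (2.87 against untreated, adjusted p = 0.0737) and 243, 774 and 225 CPM in Smox (2.76, adjusted p = 0.23). DESeq2 called the WT difference (2.87, adjusted p = 0.013), and so did edgeR without WT AOM-DSS non-tumor replicate 1 (3.39, adjusted p = 0.0478). With AOM-DSS and spermidine together WT libraries had 11.5, 39.0 and 45.8 CPM and Smox libraries 116, 113 and 292 CPM, which did not overlap (2.44, 95% interval 0.45 to 4.42, adjusted p = 0.24).

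In tumors Slc9a3 fell in Smox, to 74.7, 58.5 and 1.92 CPM (log2 -3.20, SE 0.99, adjusted p = 0.0246). The call was lost without Smox AOM-DSS non-tumor replicate 2, which had 774 CPM (-2.37, adjusted p = 0.108), and without Smox AOM-DSS tumor replicate 1 or 2 (-3.77 and -3.43, adjusted p = 0.0631 and 0.0742), and in a model of these groups alone (adjusted p = 0.105). In WT with spermidine the tumors had 127, 44.4 and 183 CPM, above or among the non-tumor libraries (1.88, 95% interval -0.07 to 3.83, adjusted p = 0.126). The difference between the tumor changes, a comparison added after the values were seen, was -5.08 (SE 1.36, adjusted p = 0.206 in edgeR, where 0.0102% of all genes were called). DESeq2 gave -5.10 (adjusted p = 0.00881). For the other 9 genes this difference had an unadjusted p over 0.05. The ratio of Slc26a3 to Slc9a3 per kb was 9.29 to 24.9 in WT AOM-DSS spermidine non-tumor colon and 0.0196 to 0.603 in WT tumors. In Smox it was 0.465 to 1.41 in AOM-DSS non-tumor colon, which lay inside the 0.022 to 7.48 of the tumors.

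The sodium channel subunits changed little beside their spread, apart from Scnn1a in WT tumors. Scnn1a (ENSMUSG00000030340.16, chromosome 6, 125320659 to 125344943), the alpha subunit that the channel cannot do without, was at 128, 161 and 184 CPM in WT AOM-DSS spermidine non-tumor colon and 60.0, 64.3 and 49.7 CPM in the tumors (log2 -1.44, SE 0.52, 2.72-fold, adjusted p = 0.0351). The groups did not overlap, and the call was lost in 5 of the 6 fits that left out a library, each but the one without WT AOM-DSS spermidine non-tumor replicate 1 (changes of -1.53 to -1.32, adjusted p = 0.0629 to 0.111), and with no filter (adjusted p = 0.0645). In Smox it was at 79.9, 136 and 142 CPM in non-tumor colon and 52.0, 61.8 and 65.9 CPM in tumors, which did not overlap either (-0.99, 95% interval -2.06 to 0.07, adjusted p = 0.151). Smox tumors were called without the atypical libraries (adjusted p = 0.0472) and in a model of these groups alone (adjusted p = 0.0412). The 6 tumors were close together, from 49.7 to 65.9 CPM. In untreated WT Scnn1a was at 77.9, 152 and 14.3 CPM, and the lowest was the atypical replicate 3 with its few position genes. AOM-DSS in WT gave a log2 difference of 1.13 (adjusted p = 0.178), and 1.996 (adjusted p = 0.0279) without WT untreated replicate 2.

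Scnn1b (ENSMUSG00000030873.9, chromosome 7, 121865038 to 121918514) and Scnn1g (ENSMUSG00000000216.8, chromosome 7, 121734479 to 121768475), the beta and gamma subunits, lie close to each other on the chromosome. Scnn1b was at 9.68, 14.8 and 13.2 CPM in Smox non-tumor colon and 18.7, 35.0 and 12.1 CPM in tumors, and in WT with spermidine at 5.73, 7.79 and 11.8 CPM and 29.97, 15.1 and 4.50 CPM. Scnn1g was at 3.99, 7.95 and 5.91 CPM in Smox non-tumor colon and 10.7, 19.1 and 3.74 CPM in tumors. Tumor and non-tumor libraries overlapped for both genes in both genotypes. The log2 differences were 0.80 and 0.97 for Scnn1b and 0.91 and 0.60 for Scnn1g in Smox and WT, with adjusted p of 0.257 to 0.679, and the intervals reached from -1.50 to 3.01. WT untreated replicate 3 had the lowest level of both, 1.23 CPM of Scnn1b and 0.173 CPM of Scnn1g, where the other untreated WT libraries had 7.79 and 18.0 CPM and 4.63 and 21.6 CPM. Per kb, Scnn1a exceeded Scnn1b by 3.27 to 14.2 times in the non-tumor libraries and by 1.13 to 7.04 times in tumors.

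Cftr (ENSMUSG00000041301.15, chromosome 6, 18170687 to 18322768) varied little outside the tumors, at 69.7 to 125 CPM in the 12 libraries without AOM-DSS and 73.8 to 200 CPM in the 12 non-tumor libraries after it. In Smox it was at 200, 136 and 129 CPM in non-tumor colon and 38.4, 24.8 and 72.8 CPM in tumors (log2 -1.78, SE 0.36, 3.43-fold, adjusted p = 0.00487). In WT with spermidine it was at 95.2, 101 and 144 CPM and 14.2, 36.0 and 15.4 CPM in tumors (-2.37, SE 0.37, 5.18-fold, adjusted p = 0.000275). Both calls were kept with each library left out in turn. The untreated and AOM-DSS groups did not overlap in WT (98.0, 75.9 and 69.7 CPM against 111, 117 and 113 CPM) or in Smox (98.2, 90.5 and 115 CPM against the non-tumor values above), and the log2 differences were small, 0.48 (adjusted p = 0.425) and 0.61 (adjusted p = 0.491). Cftr shared 129 exon bases with predicted genes of either strand, and the strand setting of the counting is not given in the sources used here.

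Genotype made no difference that passed the test for any of the 10 genes. Smox and WT were compared in untreated colon (5.95% of all genes called), with spermidine (0.0818%), after AOM-DSS (0.0665%), after AOM-DSS with spermidine (0.251%) and in tumors, where WT alone had spermidine (0.0614%). In these 5 comparisons 0 members were called in edgeR, and 1, 0, 0, 2 and 1 had an unadjusted p under 0.05. DESeq2 called 1 in untreated colon and 1 after AOM-DSS with spermidine. The first was Aqp4, at 74.7 to 221 CPM in untreated Smox against 25.0 to 46.0 CPM in untreated WT, without overlap (log2 1.81, 95% interval 0.48 to 3.14, adjusted p = 0.0862 in edgeR and 0.0324 in DESeq2). In that comparison 5 of 8 enteric neuron and glia genes were called lower in Smox, and 2 of 7 goblet cell, 2 of 7 squamous and 2 of 8 leukocyte genes higher, and their part was not tested. The second was Car1 (2.72, adjusted p = 0.156 in edgeR and 0.0232 in DESeq2), and without Smox AOM-DSS spermidine non-tumor replicate 3 the difference was -0.15. In tumors Cftr was 45.3 CPM on average in Smox and 21.9 CPM in WT (1.05, 95% interval 0.31 to 1.79, adjusted p = 0.594). For Slc26a3 the interval of the difference ran from -2.89 to 0.84 in untreated colon, so a several fold lower level and a slightly higher level both lie inside it.

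**Figure D4:**
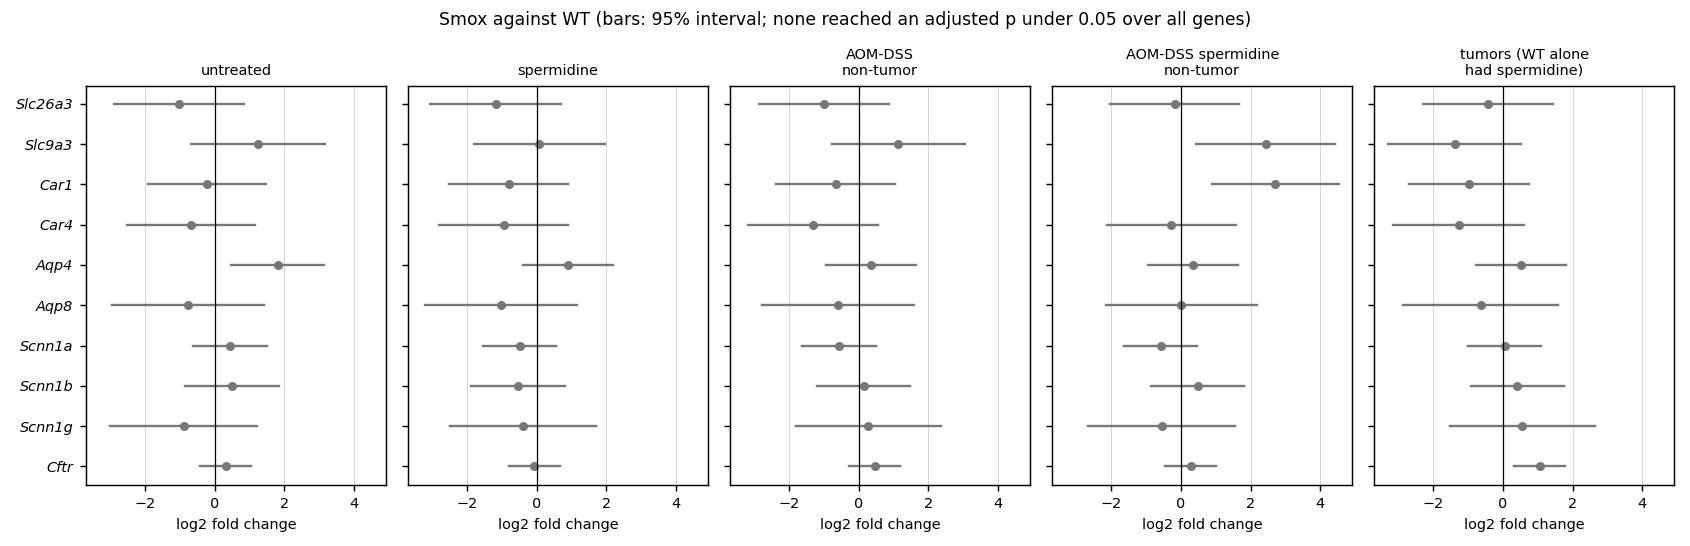
Log2 fold change of Smox against WT (horizontal axis) for each gene in 5 conditions, as estimate and 95% interval. No gene reached an adjusted p under 0.05, and most intervals span 0.

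Spermidine made no called difference either. Of the 10 genes 0 were called in edgeR in WT (0.00511% of all genes called) and in Smox (0.0% called), and 0 when spermidine was added to AOM-DSS in WT (0.0%) or in Smox (0.0%). Unadjusted p values were under 0.05 for Slc9a3 in WT with and without AOM-DSS and for Car1 in Smox with AOM-DSS, and DESeq2 called 0 of the 10 in the 4 comparisons. In WT, Car4 went from 458, 691 and 440 CPM untreated to 925, 721 and 876 CPM with spermidine without overlap (log2 0.67, 95% interval -1.18 to 2.52, adjusted p = 0.783). Tests of whether genotype altered a response called 0 of the 10 for spermidine (2.91% of all genes called), for AOM-DSS (0.0%), for AOM-DSS under spermidine (0.0%) and for spermidine after AOM-DSS (0.0%). DESeq2 called 0 in each, and Car1 alone had an unadjusted p under 0.05, in the last pair. The AOM-DSS change of Aqp4 differed between Smox and WT by -1.46 on the log2 scale (95% interval -3.30 to 0.38, adjusted p = 0.46). Comparisons of this kind share control libraries, so their values are given side by side and no overlap is read from them.

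Per kb of exon, Car1 was the most abundant of the 10 genes in colon without AOM-DSS, with a median of 7895 CPM per kb over 12 libraries, and it did not overlap the next. It was followed by Aqp8 (377), Car4 (263), Slc26a3 (107), Scnn1a (22.5), Slc9a3 (12.8), Cftr (12.0), Aqp4 (8.64), Scnn1b (4.49) and Scnn1g (2.92), where each overlapped its neighbour. In tumors Car1 was still first by median (50.0 CPM per kb) and did not overlap the next, followed by Scnn1a (14.7), Aqp4 (13.1), Slc9a3 (12.1), Scnn1b (6.43), Cftr (3.92), Car4 (3.25), Aqp8 (3.14), Scnn1g (2.67) and Slc26a3 (1.23), where each of these overlapped its neighbour. The lowest tumor level of Car1, 17.9 CPM per kb, was below the highest of Aqp4 (37.6), Slc9a3 (33.2) and Car4 (22.4), so those ranges overlapped. Within a gene, the 10 groups ordered by median formed 9 neighbouring pairs, of which 0 to 2 had ranges apart. The same count was not made over all genes, so the pairs are a description and no trait of these 10 genes is read from them. For Slc26a3 and Aqp8 the only such pair was Smox spermidine above Smox tumors. For Car4 it was untreated Smox above WT tumors, and for Aqp4 WT AOM-DSS spermidine non-tumor colon above untreated Smox. For Slc9a3 it was Smox AOM-DSS non-tumor colon above WT tumors, and for Cftr Smox above WT AOM-DSS non-tumor colon. Scnn1a, Scnn1b and Scnn1g had none. Car1 had 2 such pairs, untreated WT above WT AOM-DSS non-tumor colon and WT AOM-DSS spermidine non-tumor colon above WT tumors.

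Other genes of salt and water transport were taken from 8 lists by role, 53 genes of which 51 were tested. In Smox tumors 21 of the 51 fell and 5 rose, with a median log2 change of -0.87, and in WT tumors 22 fell and 3 rose, with a median of -0.92, beside -0.01 and 0.01 over all genes. The shares called over all genes are given above. Among exchangers, Slc26a2, a sulfate and anion transporter, fell from 595 to 94.7 CPM in Smox (adjusted p = 0.00245) and from 961 to 101 CPM in WT (adjusted p = 0.00021), and the sodium-proton exchanger Slc9a2 fell in both (7.39-fold and 6.22-fold). Of 6 other carbonic anhydrases 4 fell in Smox and 3 in WT. Car2, the widespread enzyme inside cells, fell from 651 to 103 CPM in Smox and from 817 to 129 CPM in WT (adjusted p = 0.0022 and 0.000275). Among 7 genes that control the sodium channel, 4 fell in Smox and 5 in WT. They include Hsd11b2, which shields the mineralocorticoid receptor from glucocorticoids (641 to 112 CPM in Smox and 409 to 59.2 CPM in WT), and Nedd4l, the ligase that removes the channel from the membrane (2.21-fold and 1.74-fold). Nr3c2, the mineralocorticoid receptor, fell in WT tumors (138 to 33.9 CPM, adjusted p = 0.000464).

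Among the pump genes Atp1b1, a beta subunit of the sodium pump, fell in both tumor comparisons (1.61-fold in Smox and 1.78-fold in WT) and Fxyd3, a small regulator of the pump, rose (2.23-fold in Smox and 2.48-fold in WT). In WT Atp1b3 rose as well. Of 5 potassium channels, Kcnma1 and Kcnk5 fell in both and Kcnq1 rose in Smox. Of 7 genes listed under chloride and bicarbonate secretion, 3 fell in Smox (Clcn2, Clca1 and Clca4a) and 2 in WT (Clcn2 and Clca1). Slc12a2, Ano1, Best2 and Clca4b of that list were called in neither, so the counts do not describe secretion as a whole. Clcn2, a chloride channel, fell from 310 to 72.6 CPM in Smox and from 222 to 75.3 CPM in WT. Clca1, a secreted goblet cell protein, fell 12.4-fold and 11.2-fold, and goblet cell genes summed to 734 to 4161 CPM in tumors against 2270 to 16327 CPM in the non-tumor libraries. Guca2a, which encodes guanylin, the peptide that turns on CFTR through Gucy2c, fell 10.4-fold in Smox and 5.09-fold in WT, and Gucy2c fell 1.93-fold and 2.80-fold. Prkg2, the kinase downstream of Gucy2c, was at 0.0901 CPM on average in WT AOM-DSS spermidine non-tumor colon and rose to 115 CPM in the WT tumors (adjusted p = 0.000251). Of 5 tested aquaporins Aqp11 fell in both (2.52-fold and 3.30-fold) and Aqp3 rose in Smox, at 2.05 CPM.

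With AOM-DSS in WT non-tumor colon, 1 of the 51 rose (Fxyd3, 2.81-fold) and 2 fell (Slc4a4 and Prkg2), with a median of -0.03, beside 6.44% of all genes called. Under spermidine 4 of the 51 fell in WT (Car12, Atp1b3, Guca2a and Prkg2) and none rose, beside 1.48% of all genes called lower. Guca2a went from 1042 to 163 CPM (6.38-fold, adjusted p = 0.0391). Prkg2 was also called between Smox and WT after AOM-DSS with spermidine, at 26.6 against 0.0901 CPM (adjusted p = 0.0217). It was the only 1 of the 51 called there, beside 0.251% of all genes called. In untreated colon 1 of the 51 was higher in Smox (Fxyd3, 2.32-fold) and 1 lower (Tsc22d3, a glucocorticoid-induced gene, 2.01-fold), beside 5.95% of all genes called.

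Several cell type lists moved with the tumor changes. The 6 other surface colonocyte genes such as Krt20 summed to 3868 to 7897 CPM in tumors against 6562 to 19659 CPM in the 24 non-tumor libraries. These sums overlap, but the mean log2 CPM of the 6 genes did not, at 5.79 to 6.78 in tumors and 7.12 to 10.1 in non-tumor libraries. Of the 6 genes 5 fell in Smox and 4 in WT. The crypt base genes had a mean log2 CPM of 5.07 to 7.22 in tumors, against 2.11 to 5.61 in the other non-tumor libraries and 6.61 in the atypical Smox AOM-DSS spermidine non-tumor replicate 1, and 4 of 4 rose in both comparisons. Smooth muscle genes summed to 26.5 to 1014 CPM in tumors and 340 to 8537 CPM elsewhere, 3 of 8 falling in Smox and 8 of 8 in WT. Of 8 enteric neuron and glia genes 7 fell in Smox and 6 in WT. Of 7 squamous genes 6 rose in Smox tumors (summed 54.5 to 619 CPM, against 2.80 to 12.2 CPM in their non-tumor colon) and 1 in WT. The mean log2 CPM of the 12 epithelial genes was 9.24 to 9.84 in tumors and 9.59 to 10.4 elsewhere, and 3 of the 12 fell and 1 rose in Smox tumors and 7 fell and 1 rose in WT tumors. With that mean as a covariate in the model, which itself moves with the tumor label, 13 of the 18 calls for the 10 genes were lost, and the called tumor changes that were lost ran from -4.42 to -0.74, while the Cftr call in WT tumors was kept. The part of the makeup of the tissue in the results was not tested beyond this.

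The position genes bear on the comparisons within non-tumor colon. Their mean log2 CPM was 5.60, 5.83 and 0.19 in untreated WT and 5.63, 1.43 and 3.33 in WT after AOM-DSS, and 1.62 to 2.58 in Smox after AOM-DSS. With spermidine added it was 5.71 to 6.05 in WT and 0.46 to 2.83 in Smox, and in tumors it was 5.61 to 6.12. With position as a covariate the Aqp4 and Car1 calls with AOM-DSS in WT were kept, alone and under spermidine. That model also called Slc9a3 (2.96, adjusted p = 0.0471) and Scnn1a (1.84, adjusted p = 0.0356) with AOM-DSS in WT, Car1 in Smox (-5.23, adjusted p = 0.00626) and Aqp4 and Car1 in Smox under spermidine (2.61 and -3.32, adjusted p = 0.0296 and 0.028). In the Smox tumor comparison, where position and tumor label move together, it lost Slc9a3, Car1, Aqp4 and Aqp8 and kept Slc26a3, Car4 and Cftr.

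**Figure D5:**
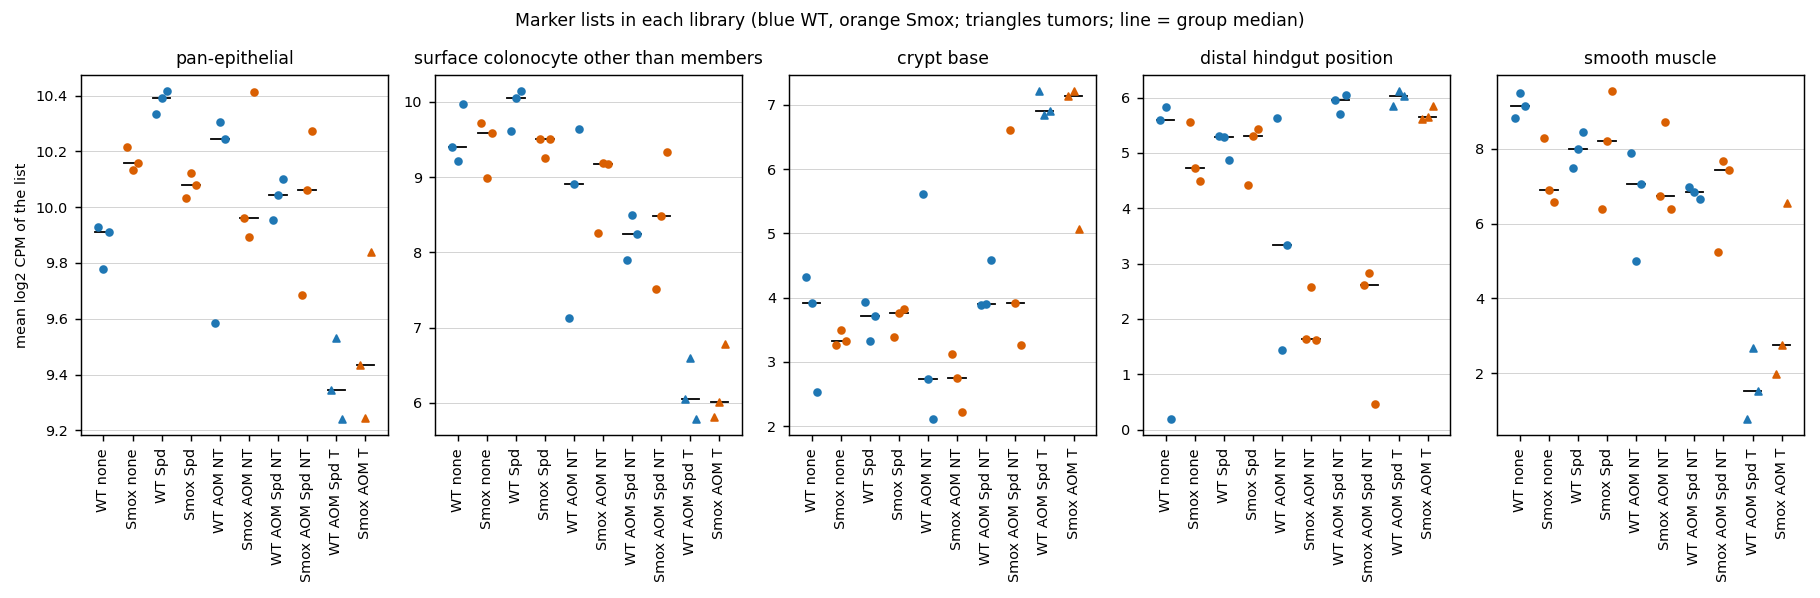
Mean log2 CPM of 5 marker lists (vertical axes, each with its own range) in each library, by group, with WT in blue, Smox in orange, tumors as triangles and the group median as a line. Surface colonocyte and smooth muscle genes are lower and crypt base genes higher in tumors, and the position genes differ among the non-tumor libraries after AOM-DSS.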

How the data were processed

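RNA was sequenced from 30 mouse colon libraries, 3 in each of 10 groups, with a directional kit per the labels' protocols. The submitters' processing notes name fastp, Salmon, DESeq2 and GRCm38, with no versions, roles or settings. The authors deposited estimated counts (expected counts) per gene as whole numbers. Estimated counts can shift reads between overlapping or similar genes. Lengths and positions come from GENCODE vM21.

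Genes were filtered with filterByExpr (minimum count 10, minimum total 15), scaled by TMM and tested in edgeR 4.0.16 (R 4.3.3) with a robust quasi-likelihood model of 1 mean per group and 20 residual degrees of freedom. Benjamini-Hochberg adjustment took in all 19558 tested genes in each of 20 comparisons. Log2 CPM used a prior count of 2, and intervals are 95%. The model was tested on simulated data for AOM-DSS in WT and for both tumor comparisons. It called 20% to 31% of the genes changed 2-fold and 58% to 64% of those changed 4-fold. Of the genes it called, 0% to 6.02% had not been changed. Most 2-fold changes were missed, so a gene not called is not shown to be unchanged. DESeq2 1.42.0, RLE scaling, other filters, covariates and left-out libraries were alternatives.

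The members and lists were chosen with earlier results of these data known. The text names all members. Slc12a2, Ano1, Best2 and Clca4b are named as genes not called. Other genes named are among the 3 called with the smallest adjusted p per role list and comparison, or the 3 nearest by likeness, and not all of these are named. A gene so chosen in 1 tumor comparison is given in the other too where it was called there. Of the tumor comparisons, Nr3c2, Atp1b3 and Prkg2 were called in WT only, and Kcnq1, Clca4a and Aqp3 in Smox only. Replicate numbers follow deposit order and pair no samples, and p values measure the spread between mice. In the tumor comparisons the tests treat tumor and non-tumor libraries as separate mice, which the labels do not state.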

Additional observations from a re-analysis of the deposited data

Results flagged for a closer look

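The tumor change of Slc9a3 differed between the groups, at -5.08 on the log2 scale (SE 1.36, adjusted p = 0.206), since every Smox tumor lay below the mean of its non-tumor group and every WT spermidine tumor above the mean of its own. The lowest WT tumor, at 44.4 CPM, overlapped the highest non-tumor library of its group, at 45.8 CPM, and counting movement against the control mean was settled after these values were seen. The response to spermidine went opposite ways by the same count for Scnn1a, with a difference of -0.93 (SE 0.72, adjusted p = 0.505), and for Cftr, with -0.39 (SE 0.50, adjusted p = 0.721). None of these differences was called in edgeR, and DESeq2 called that of Slc9a3 (-5.10, adjusted p = 0.00881). Groups of 3 libraries were not screened for single outlying samples.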

How the results depend on the processing

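Of the 18 calls, 8 were kept in each fit that left out 1 library (Slc26a3, Car4, Aqp8 and Cftr in both tumor comparisons), and 0 were lost under DESeq2, RLE scaling or a filter of 1 CPM in 3 libraries. The model of only the groups compared lost 3, no filter 3, the position covariate 4, the epithelial covariate 13 and leaving out both atypical libraries 1. By comparison, the number of the 10 genes called moved as follows. The share of all genes called under each alternative is not given, so a change in these counts may hold for genes at large. Smox tumors, 7 in the report, gave 3 with position, 0 with the epithelial covariate and 8 without the atypical libraries, and 4 to 7 with a library left out. WT tumors, 7 in the report, gave 1 with the epithelial covariate, 5 with no filter and 4 to 6 with a library left out. AOM-DSS in WT, 2 in the report, gave 4 with position, 3 under DESeq2, 1 with no filter, 1 without the atypical libraries and 0 in the model of only the groups compared, and 0 to 3 with a library left out. AOM-DSS in WT under spermidine, 2 in the report, gave 3 in the model of only the groups compared and 0 to 2 with a library left out. AOM-DSS in Smox, 0 in the report, gave 2 under DESeq2 and 1 each with position, with the epithelial covariate, without the atypical libraries and in the model of only the groups compared. AOM-DSS in Smox under spermidine, 0 in the report, gave 2 with position, 1 under DESeq2 and 0 to 1 with a library left out. Smox against WT gave 1 under DESeq2 in untreated colon, and 1 under DESeq2 and 1 without the atypical libraries after AOM-DSS with spermidine. The added difference in tumor change gave 1 under DESeq2. Car1 between Smox and WT after AOM-DSS with spermidine turned from 2.72 to -0.15 without Smox AOM-DSS spermidine non-tumor replicate 3, and ran from -0.15 to 3.25 with a library left out. The causes were not tested. Single genes were followed across settings only where the main model or an alternative called them. No paired analysis was possible because the labels pair no samples.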
